A study of Homo sapiens with 2 samples.

Results

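Among the regions bound by the splicing protein SNRPA1, 349 of 7651 distinct peak intervals (4.56%) were listed under 2 or more Ensembl gene identifiers at the same chromosome, start, end and strand, and these 349 intervals are described here. The rule that chose them used identifiers and coordinates, and not reads, width or p. The list itself holds no p above 0.0499 and no interval under 3 reads. A shared interval therefore had to be listed with such a p under each of its identifiers. The other 7302 intervals carried a single identifier. SNRPA1 was recovered by irCLIP, in which protein and RNA are cross-linked and precipitated together and the attached RNA is sequenced, with an antibody against the endogenous protein from MDA-231-LM2 cells, a human breast cancer line. The 2 replicate libraries form 1 group of the same line, antibody and treatment, and no control precipitation or input was analysed here. The reads came as 2 peak lists: a list from the peak caller CLIPper, with reads and a p per interval, and a second list with a height in unique tags and a P per interval, called the height list below. Neither list keeps the replicates apart, so no value has a spread between replicates and no test between conditions was possible. Library depth is unknown. Intervals given with shares, reads and medians are 95% intervals and cover counting error at most, with no spread between replicates. Reads amplified by PCR are not independent molecules, so the intervals of reads can be too narrow even for counting error.

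SNRPA1 belongs to the U2 particle of the spliceosome, which recognises the intron branch point, and it sits on a stem-loop of U2 small nuclear RNA together with SNRPB2. Human chromosomes carry many copies and pseudogenes of U2 RNA, some inside the introns of other genes, and snoRNA and microRNA genes are often nested in the same way. Readthrough genes span a pair of neighbouring genes in 1 transcript, and the protocadherin gamma and UGT1A clusters consist of transcripts with different first exons joined to common last exons. At each such place a read belongs to more than 1 annotated gene.

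Most intervals with several identifiers had 2 of them: 324 had 2, 22 had 3, and 1 each had 5, 15 and 17. They occupied 751 of the 8053 lines of the CLIPper list and formed 237 combinations of identifiers, of which 220 were pairs and 17 held 3 or more. Reads were the same under every identifier of an interval in all 349. Of the 4848 identifiers in the list, 485 (10.0%) had at least 1 shared interval, and 412 (8.50%) had shared intervals only. The members lay on both strands, 182 on the plus and 167 on the minus strand. None of the 48 intervals of the mitochondrial genome was shared, which allows a share of up to 7.41%.

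The Ensembl identifiers are not named in the annotation used here. Genes were therefore named through height-list peaks at the same site, whose Entrez identifiers have RefSeq symbols, or through an identifier whose other intervals met such peaks. This gave a gene to 87 of the 349 intervals and left 262 without a name. In most cases it names 1 gene of the pair, and the partner is known by its identifier only.

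The strongest shared intervals lay in 7 pairs, and in all 7 the gene that could be named contains a U2 copy. WDR74, which encodes a factor of ribosome assembly, held 6 shared intervals, among them the highest of all. They ran from 62609139 to 62609192 of chromosome 11 (hg19, minus strand) under ENSG00000133316.10 and ENSG00000222328.1, with 1030, 2208, 2486, 1876, 2434 and 1305 reads in order of position. The 95% Poisson interval of the highest was 2389 to 2586. The intervals under the first identifier spanned 178 nt here and those under the second 80 nt, inside the first. The height list gave a peak of 1255 tags at this site, under WDR74 alone.

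RUBCNL, a gene of autophagosome maturation, had the most shared intervals of any pair, 9 from 46948579 to 46948725 of chromosome 13 (minus strand), under ENSG00000102445.14 and ENSG00000241353.2. Their reads ranged from 51 to 962, and 8 of the 9 had 100 or more. A further identifier, ENSG00000223336.1, had 8 intervals over 119 nt of the same stretch, with up to 959 reads, and none of them had the bounds of a shared interval. The 2 identifiers that share bounds both spanned the full 147 nt. RUVBL1, an ATPase of chromatin-remodelling complexes, had 1 shared interval with 1217 reads at 127793990 to 127794010 of chromosome 3 (minus strand), where ENSG00000175792.7 spanned 151 nt and ENSG00000222627.1 spanned 41 nt.

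**Figure D1:**
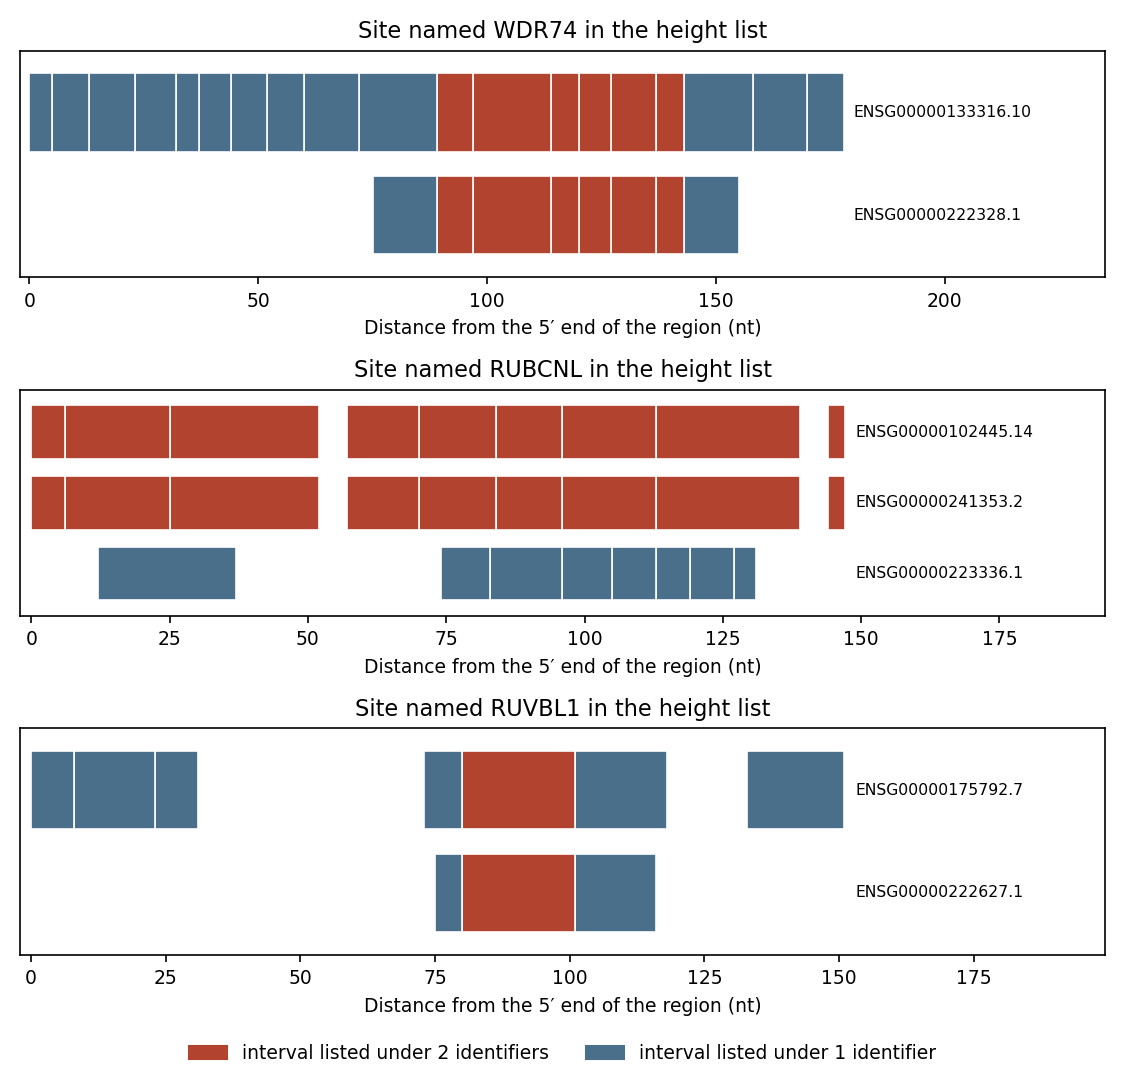
Intervals of the CLIPper list at the sites named WDR74, RUBCNL and RUVBL1, drawn by distance from the 5′ end of each region in nt, with 1 line of boxes for each Ensembl identifier. Red boxes are listed under 2 identifiers and blue boxes under 1; at WDR74 and RUVBL1 the boxes of the shorter identifier lie inside the span of the longer one, and at RUBCNL 2 identifiers have the same 9 boxes while the third has 8 boxes with other bounds.

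The remaining 4 strong pairs each had 1 shared interval. PCDH11Y, a Y-linked protocadherin, had 699 reads at 4887213 to 4887232 of chromosome Y and no height-list peak at the site. IFT88, a protein of intraflagellar transport, had 517 reads at 21186382 to 21186413 of chromosome 13. KIF24, a kinesin, had 436 reads at 34282580 to 34282594 of chromosome 9. GSKIP, which binds the kinase GSK3B, had 370 reads at 96851057 to 96851087 of chromosome 14. In each of them the second identifier had a shorter span than the first: 43 against 93 nt at PCDH11Y, 42 against 45 nt at IFT88, 35 against 46 nt at KIF24 and 43 against 55 nt at GSKIP.

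In the RefSeq table of assembly GRCh38.p14, WDR74 contains RNU2-2, RUBCNL contains RNU2-6P and RUVBL1 contains RNU2-37P. PCDH11Y contains RNU2-57P, IFT88 contains RNU2-7P, KIF24 contains RNU2-50P and GSKIP contains RNU2-33P. Among the other combinations with a named gene, 1 of 53 had a U2 copy in that gene: RNU2-31P in SCHIP1 and its readthrough gene IQCJ-SCHIP1, at an interval with 3 reads. The table lists positions in another build than the peaks, so whether each copy lies at the peak itself was not tested, and no sequence is printed because no genome of the peaks' build was used here.

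Strong sites at which identifiers overlap with different bounds, and which are therefore not among the 349, also lay in genes with U2 copies. In 80 joined regions (intervals no more than 50 nt apart on a strand) intervals under different identifiers overlapped without equal bounds, and 13 of these regions reached 100 reads. These 13 comprise the 7 strong sites above and 6 more, and the named gene contains a U2 copy in all 13. In the whole list 65 regions without a shared interval reached 100 reads, these 6 among them. The share of all such regions with a U2 copy was not counted. U2 copies can therefore not be called particular to strong sites of overlapping identifiers. The 6 are ZYG11B with up to 279 reads, SKA2 with 101, GREB1 with 147, RBM46 with 113, HDAC8 with 226 and PCDH11X, the X-linked relative of PCDH11Y, with 717. PCDH11X and PCDH11Y had similar maxima, 717 and 699 reads (Poisson interval of the latter 648 to 753), and neither site had a height-list peak. Whether the same reads were placed on both chromosomes was not tested. Where 2 such intervals had 1 edge in common, in 34 of 113 overlapping pairs, the other edge differed by a median of 3 nt and at most 30 nt.

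A shared interval held a median of 5 reads (95% interval 4 to 5; quartiles 4 to 7), the median of single-identifier intervals as well (quartiles 3 to 7). The maxima were alike as well, 2486 and 2507 reads. The 90th percentile was 13.2 reads for shared and 16.0 for single-identifier intervals, and the mean 59.3 and 17.8. Of the shared intervals 19 of 349 (5.44%, Wilson interval 3.51 to 8.35) had 100 or more reads, against 217 of 7302 single-identifier intervals (2.97%, 2.61 to 3.39) and 3.08% of all intervals. That share rests on the WDR74 and RUBCNL pairs: without them it was 1.50% (0.641 to 3.46) of 334 intervals. The 2.97% still includes strong single-identifier intervals at these sites, so it is no like comparison for the 1.50%. Counted over joined regions, 7 of 287 with a shared interval (2.44%, 1.19 to 4.95) reached 100 reads, against 65 of 6155 without one (1.06%, 0.829 to 1.34).

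Below these sites reads thinned out quickly. HAUS7, a subunit of the augmin complex of the spindle, had 3 shared intervals, with 78, 78 and 8 reads. PET117, an assembly factor of cytochrome c oxidase, had 58 and a STON1 site 42. Both HOXA5 intervals had 37. Of all shared intervals 162 (46.4%) had 3 or 4 reads, where 3 is the lowest number in the list.

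Shared intervals had a median width of 32 nt (quartiles 26 to 36), and single-identifier intervals 33 nt (27 to 36). Intervals under 10 nt made up 15.5% of the shared intervals (54; 12.1 to 19.6) and 12.1% of the others (11.3 to 12.8), and the ranges touch. The widest was 80 nt in EFCAB11, at 90341385 to 90341464 of chromosome 14 with 12 reads. A 74 nt interval on chromosome 1 from 145277401 had 17 reads and a 73 nt interval from 156186517 had 9, neither with a named gene. The next widest were a pair of 44 nt intervals with 12 reads each. The narrowest, 3 nt, was at RUBCNL.

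**Figure D2:**
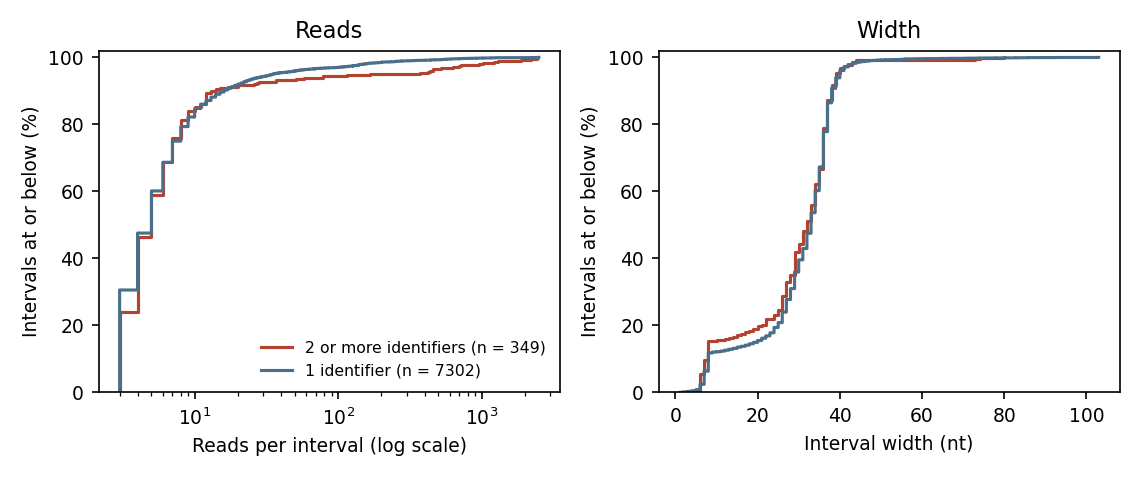
Cumulative share of intervals, in percent, by reads (left, log scale) and by width in nt (right), for the 349 intervals with 2 or more identifiers (red) and the 7302 with 1 (blue). Both curves pass their middle at 5 reads, and at 32 and 33 nt.

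How the identifiers of a pair lay relative to each other was read from the intervals that overlap no interval of the partner. In 146 of the 220 pairs (66.4%) neither identifier had such an interval, so no site of the list has 1 of them without the other. Edges and p can still differ within such a pair, as at IFT88 and GSKIP. In 57 pairs (25.9%) 1 identifier had further intervals on 1 side of the shared ones or between them, and in 11 (5.00%) on both sides, as at WDR74. In 6 pairs (2.73%) both had intervals of their own. RBFOX1, a splicing regulator, was among these, with 6 intervals of its own against 7 under ENSG00000260411.2. This pair alone shared 3 intervals of 3 to 12 reads, spread over 179419 nt. Another 2 intervals, of 3 and 4 reads, stood under both and under ENSG00000257180.1, upstream from 6110130 of chromosome 16.

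Of the 237 combinations 163 (68.8%) shared 1 interval, 52 (21.9%) shared 2, and 22 (9.28%) shared 3 or more. Most of the last had their intervals in more than 1 joined region. PALM2AKAP2, which encodes a paralemmin and A-kinase anchor fusion, had 5 shared intervals of 3 to 10 reads over 135215 nt. STON1, an endocytic adaptor, had 3 of 4 to 42 reads over 32119 nt. NELL1, a secreted signalling protein, had 3 of 3 to 4 reads over 115333 nt. KCNQ5, a potassium channel gene, had 3 of 4 to 6 reads within 706 nt. The partner ENSG00000233844.1 had no interval of its own, and RefSeq lists the intronic transcript KCNQ5-IT1 within KCNQ5. LMO7, ANKHD1 and the pseudogene SMG1P5 had 3 each, with up to 12, 8 and 5 reads. The 3 of HAUS7 spanned 9382 nt. Except at RUBCNL, WDR74, HAUS7 and STON1, no combination with 3 or more shared intervals exceeded 12 reads, those without a named gene included.

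Among shared intervals, the p that CLIPper gave to 1 interval depended little on the identifier in most cases. The list holds no p above 0.0499, which limits how large a ratio can be at few reads. At 3 reads the median p of single-identifier intervals was already 0.0191. Over 332 shared intervals with p above 0 under each identifier, the highest p was a median 1.01 times the lowest, and 82.8% differed by less than 1.1 times. In 22 intervals the ratio was 2 or more, and in 9 it was 10 or more. No ratio can be formed for the 14 intervals whose listed p was 0 under all identifiers. Another 3 were at 0 under the longer identifier only: IFT88 had 2.13e-199 under the shorter one, KIF24 8.71e-249 and GSKIP 4.11e-152.

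The PET117 site, at 18121667 to 18121705 of chromosome 20, had the largest ratio. Its 58 reads gave 3.98e-80 under ENSG00000149474.8 and 3.39e-72 under ENSG00000232838.2, a ratio of 8.52e+07. RefSeq lists KAT14, an acetyltransferase gene, over PET117 on the same strand. The adjacent HOXA5 intervals, at 27180720 to 27180756 of chromosome 7, had ratios of 1150 and 16179, and RefSeq lists HOXA3 and HOXA-AS3 over HOXA5. At TAF1D, a gene of the RNA polymerase I initiation complex that hosts several snoRNAs, 7 reads gave 1.17e-05 under ENSG00000166012.10 and 0.00653 under ENSG00000206799.1, a ratio of 561. The fifth largest ratio, 33.4, was at 36350229 to 36350266 of chromosome 14, with 9 reads and no named gene. No p in the list exceeds 0.0499.

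Where 1 identifier of a pair had intervals of its own and the other had none, p was higher under the latter in 71 of 103 intervals and lower in 24. The other 8, at WDR74, RUVBL1 and PCDH11Y, were listed at 0 under both identifiers, so their p cannot be ordered. A pair of chromosome 19 intervals had a high p for their reads under both identifiers: 26 reads gave 1.39e-05 and 28 reads 9.57e-06. The median of single-identifier intervals with 26 reads was 6.75e-29 (13 intervals), and with 28 reads 4.19e-11 (10 intervals). Their identifiers have no gene name here, and they were singled out after their values were seen. A highest p 10 or more times such a median occurred in 6 of 320 shared intervals (1.88%). It occurred in 218 of 6798 single-identifier intervals (3.21%). These shares cover read numbers held by 20 or more single-identifier intervals, which leaves out 26 and 28. At 3 reads, the number in 2233 of the 6798, a median of 0.0191 and the limit of 0.0499 allow no such excess. The highest p was taken over all identifiers of a shared interval, and single-identifier intervals have only 1 p. The shares are therefore not like measures.

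**Figure D3:**
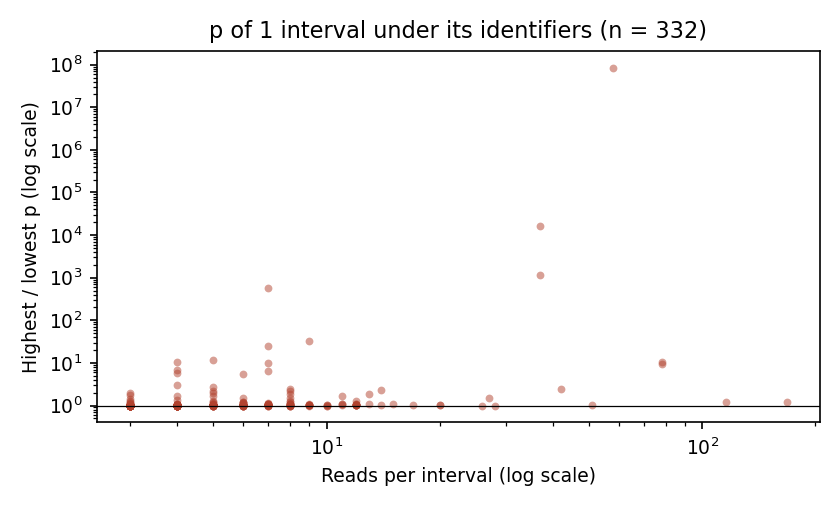
Highest over lowest p of each shared interval under its identifiers (log scale), by reads (log scale), for the 332 intervals with p above 0 under each. Most points lie near 1; the highest is the PET117 site with 58 reads, followed by the HOXA5 intervals with 37.

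Of the 349 shared intervals 68 (19.5%, 15.7 to 24.0) overlapped a peak of the height list on the same strand by at least 1 nt, beside 20.8% of all intervals and 20.8% (19.9 to 21.8) of single-identifier intervals. With 5 to 9 reads the share was 20.6% (14.6 to 28.3) for shared and 28.9% (27.1 to 30.7) for single-identifier intervals, and these ranges overlap. With 100 or more reads it was 57.9% (36.3 to 76.9; 11 of 19) against 30.0% (24.3 to 36.4; 65 of 217), and 7 of those 11 lie at WDR74 and RUBCNL, where several intervals meet 1 peak. The peaks met by shared intervals had a median of 4 tags, the same as those met by the others.

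Reads exceeded tags at most of these sites. The median was 1.99 reads per tag at shared intervals and 1.67 at single-identifier intervals. It was highest among shared intervals at PET117, with 58 reads on 6 tags (9.67), and at KIF24, with 436 reads on 47 tags (9.28). At MED27, a Mediator subunit gene, it ran the other way, with 3 reads under a peak of 12 tags.

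**Figure D4:**
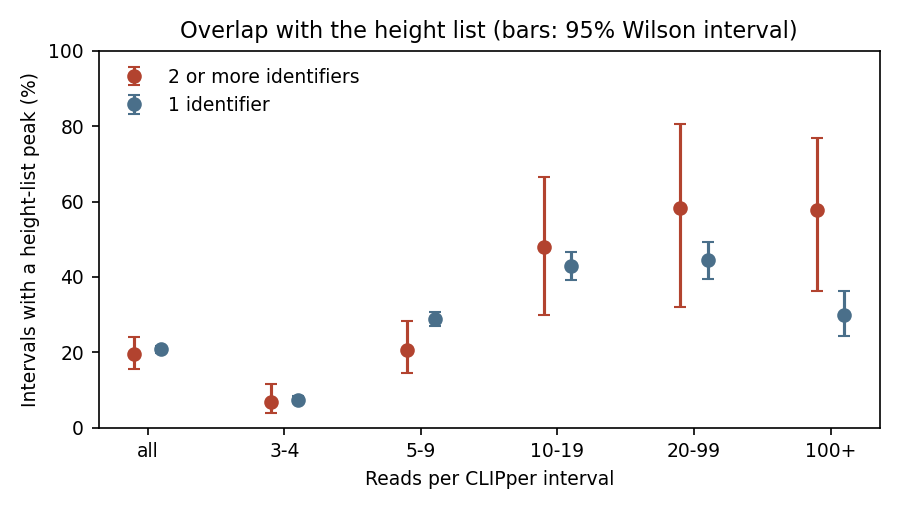
Share of CLIPper intervals that overlap a height-list peak, in percent, by reads per interval, for intervals with 2 or more identifiers (red) and with 1 (blue); bars are 95% Wilson intervals. The points overlap at 3 to 4 reads, 6.79% and 7.40%, and stand farthest apart at 100 or more reads, 57.9% and 30.0%.

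In the height list 39 of 1373 intervals (2.84%) stood under 2 or more Entrez identifiers. This is no like measure to the share of the CLIPper list, which uses Ensembl identifiers. At 21 of the 39 the genes do not overlap in RefSeq. Of these 39, 13 (33.3%, 20.6 to 49.0) met a shared CLIPper interval, at 12 combinations of identifiers. Seen from the CLIPper list, 15 of the 68 shared intervals with a peak (22.1%, 13.8 to 33.3) lay at a peak with several Entrez identifiers, against 28 of 1522 single-identifier intervals (1.84%, 1.28 to 2.65). The rule chose sites where annotated genes overlap, so this difference is given in part by the choice. The 15 intervals lie at 13 peaks and are not independent. The other 53 shared intervals had 1 Entrez identifier at their peak, the U2-containing genes WDR74, RUBCNL, RUVBL1, IFT88, KIF24 and GSKIP among them.

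Readthrough genes made up most of the sites shared in both lists, 8 of 13. STON1-GTF2A1L with STON1 had 42 reads and 7 tags, and CORO7-PAM16 with PAM16, a subunit of the mitochondrial import motor, had 9 reads and 4 tags. PRR5-ARHGAP8 with ARHGAP8 had 7 reads and 4 tags, RPS10-NUDT3 with the phosphohydrolase NUDT3 had 7 reads and 7 tags, and RTEL1-TNFRSF6B with the helicase RTEL1 had 6 reads and 4 tags. ANKHD1-EIF4EBP3 with ANKHD1 was shared at a pair of peaks with 3 tags each. IQCJ-SCHIP1 with SCHIP1 had 3 reads and 3 tags. The 181 readthrough symbols of the RefSeq table had 11 members with a height-list peak, and 8 of these met a shared CLIPper interval. These 8 symbols are not the 8 sites: ANKHD1-EIF4EBP3 counts once, and CHURC1-FNTB is added, whose peak has 1 Entrez identifier. Of all 1373 height-list intervals 55 (4.01%) met a shared interval, and a readthrough gene by its nature overlaps other genes.

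Gene clusters gave the intervals with the most identifiers. In the protocadherin gamma cluster, which encodes neuronal adhesion proteins, an interval at 140804644 to 140804680 of chromosome 5 had 9 reads under 17 Ensembl identifiers, and the peak there had 4 tags under 18 Entrez identifiers. Its p under the 17 lay between 1.16e-07 and 1.18e-07. A second interval, at 140795314 to 140795347, had 4 reads under 15 identifiers and no height-list peak. The UGT1A cluster, of glucuronosyltransferases, had 1 interval of 4 reads under 5 identifiers and a peak of 3 tags under the 5 genes UGT1A6, UGT1A7, UGT1A8, UGT1A9 and UGT1A10. The 18 protocadherin gamma genes have that 1 height-list peak in common, and the 5 UGT1A genes have theirs. No gene of the protocadherin alpha (14) or beta (20) clusters had a height-list peak.

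The other 3 sites in common were HBG2 with HBE1 (haemoglobin gamma and epsilon, 4 reads and 3 tags), PTGR2 with the zinc finger gene ZNF410 (27 reads and 10 tags), and PALM2AKAP2 (10 reads and 3 tags). By RefSeq positions, all 10 height-list sites whose genes overlap in RefSeq were shared in the CLIPper list as well, and 2 of 21 whose genes do not overlap there: HBG2 with HBE1 and PTGR2 with ZNF410. Another 3 sites had some genes that overlap and some that do not, and 0 of these 3 were shared: a pair of SLX1A and SULT1A3 readthrough sites, and PRRC2B with SNORD62A and SNORD62B. Sharing in the CLIPper list is itself an overlap of annotated genes, so these counts compare annotations and do not measure binding.

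Sites with several Entrez identifiers and no shared CLIPper interval numbered 26. They included the duplicated genes SPACA5 and SPACA5B, the snRNA genes RNU5E-1 and RNU5D-1, and neighbours such as YY1AP1 with GON4L and ATN1 with C12orf57. None of the 4 sites with a small RNA gene was shared, and 3 of them had a CLIPper interval at all. Of snoRNA, snRNA and microRNA genes, 4, 3 and 3 had a height-list peak, and none of these met a shared interval. Of all 1373 height-list intervals 55 did (4.01%), so 0 among so few says nothing particular to small RNA genes.

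**Figure D5:**
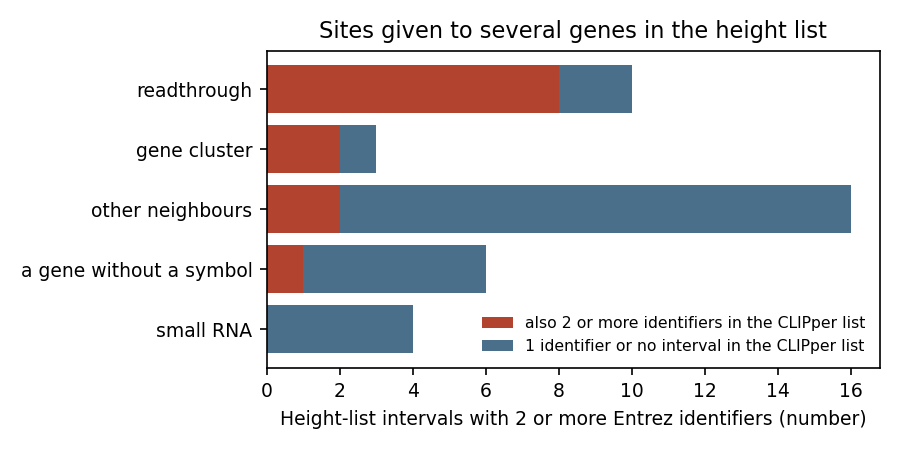
Number of height-list intervals with 2 or more Entrez identifiers, by kind of gene pair, divided into those that also have 2 or more identifiers in the CLIPper list (red) and the rest (blue). Of 10 readthrough sites 8 were shared in both lists, against 2 of 16 sites of other neighbours (14 of which had any CLIPper interval) and 0 of 4 with a small RNA gene (3 with any).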

How the data were processed

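Both lists were deposited by the authors in hg19 coordinates and are treated as pooled over the 2 replicates; the labels do not say which libraries entered each list. The submitters' processing notes name BWA 0.7, cutadapt 1.10 and the build hg19, with no settings. CLIPper is named by the name of the deposited file; for the height list a caller was not given in the sources used here. Unchanged use was made of the deposited CLIPper p-value and the number of reads in its interval names, and the height (a coverage signal in unique tags) and P-value of the height list, whose lowest value is 1.00e-100. Other deposited columns hold coordinates and identifiers.

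A distinct interval is 1 combination of chromosome, start, end and strand, printed 1-based. Intervals of both lists were matched where they overlapped on 1 strand by 1 nt or more, and regions joined across gaps of up to 50 nt. Medians have order-statistic intervals, shares Wilson intervals and reads exact Poisson intervals. RefSeq symbols were matched through Entrez identifiers (1444 of 1454 lines of the height list). Overlap of RefSeq genes ignored strand unless stated. Named sites are the pairs with 3 or more shared intervals (those with a gene name individually), the 20 intervals with the most reads, the 5 widest, the largest p ratios, intervals with 4 or more identifiers, and pairs shared in both lists. The members and lists were chosen with earlier results of these data known. Scripts were tested on simulated data and run with matplotlib 3.10.9, scipy 1.17.1, pandas 2.3.3 and numpy 2.4.6 under Python 3.11.15. No test between groups was made, with 1 group and no control.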

Additional observations from a re-analysis of the deposited data

How the results depend on the processing

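Of 21 alternatives 12 moved the value. The other 9 left a count within 1.5 times, or another value within its error. The 349 shared intervals became 511 where intervals covered each other by at least 50%, 287 as joined regions, 552 where an overlap of 1 nt sufficed, 46 with p under 1e-10 and 56 with at least 10 reads. Their median width of 32 nt became 34 over gene pairs and 30 with at least 10 reads. The share with a height-list peak, 19.5%, became 8.31% for peaks with P under 1e-05 and 53.6% with at least 10 reads, and the 12 combinations shared in both lists became 4 at that P. The following alternatives were chosen after seeing the data: the share with 100 or more reads, 5.44%, became 1.50% without the WDR74 and RUBCNL pairs, 2.44% over joined regions and 2.95% over combinations, and the median p ratio of 1.01 became 1.06 with at least 10 reads. The cause was not tested, beyond the smaller number of intervals each filter leaves. Leaving out each replicate was not run, since the lists do not keep replicates apart. No paired analysis was possible because the study has 1 group and pooled lists. Most members have under 10 reads, so shares within the upper bands of reads rest on few intervals. Differences between shares were not tested, and overlap of printed ranges does not show that the shares are equal. Intervals of 1 joined region are also not independent sites.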

Other observations

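Shared intervals were spread unevenly over the chromosomes. Chromosome 19 had the highest share, 30 of 242 intervals (12.4%, 8.82 to 17.1), and chromosome 4 had the lowest among the nuclear chromosomes, 4 of 383 (1.04%, 0.407 to 2.65). On chromosome 13 the share was 9.76% (16 of 164), and 9 of those 16 were the RUBCNL intervals. Gene density, which differs between chromosomes, was not compared with these shares.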
